A study of Caenorhabditis elegans with 609 samples.

Results

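The 5 genes described here are the mitochondrial genes of *Caenorhabditis elegans* for subunits of cytochrome c oxidase (COX1, COX2 and COX3), for cytochrome b (CYTB) and for subunit 6 of the ATP synthase (ATP6). They were chosen by their sequence names, MTCE.26.1 (COX1), MTCE.31.1 (COX2), MTCE.23.1 (COX3), MTCE.21.1 (CYTB) and MTCE.12.1 (ATP6), with 1 transcript each. They are 5 of the 12 reliably expressed mitochondrial genes and 5 of 16260 genes tested in all. The other 7 mitochondrial genes encode subunits of complex I.

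The study measured gene expression in whole young adult hermaphrodites of genetically distinct wild strains, each an isogenic line that carries its own natural genotype with no transgene, mutation or drug added. All strains, the laboratory reference strain N2 among them, were grown at 20 °C on agar plates with the *Escherichia coli* strain OP50 as food, and each population was harvested when the first embryos were seen. Poly(A) RNA was sequenced from 608 samples of 207 strains with 2 or 3 independently grown cultures each. A rule on distances between samples left 559 cultures, 3 from each of 145 strains and 2 from each of 62 strains, and these are the n of every value unless another n is given. The rule keeps cultures of a strain that lie closer to each other than the median distance to other strains. It therefore favours agreement within a strain, on which H2 and the strain F ratios rest.

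Mitochondria make most of the ATP of a cell by passing electrons from food through complexes I, III and IV of the inner membrane, which pump protons that the ATP synthase, complex V, lets back in. Cytochrome b is the catalytic core of complex III, COX1, COX2 and COX3 form the core of complex IV, in which COX1 and COX2 hold the metal centres that hand electrons to oxygen, and ATP6 is the part of complex V through which the protons flow. These subunits are encoded in the mitochondrial DNA, which is present in many copies per cell, and all their partner subunits are made from nuclear genes and imported. In *C. elegans* the mitochondrial DNA is copied up strongly in the germ line during adult life, and mitochondria are inherited through the oocyte.

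All 5 genes lie on the forward strand of the mitochondrial chromosome of the WBcel235 assembly, and each is annotated as a protein-coding gene of 1 exon. ATP6 (WBGene00010960) spans MtDNA 2634 to 3235, CYTB (WBGene00000829) spans 4504 to 5621, COX3 (WBGene00010962) spans 5678 to 6449, COX1 (WBGene00010964) spans 7827 to 9428, and COX2 (WBGene00010965) spans 9649 to 10348. CYTB and COX3 are the closest pair, with 56 bases between them, and COX1 and COX2 are next, with 220 bases between them. ATP6 overlaps the end of the complex I gene ND1 (MTCE.11, 1763 to 2635) only at bases 2634 and 2635. How reads over these bases were assigned was not tested.

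Libraries held 15461168 to 280262722 estimated counts, and the median library held 28772489. COX1 had between 11061 and 607997 counts per culture with a median of 48009, and COX2, the member with the lowest median, had 13641 counts at the median and 1598 at the lowest. The 31 sperm genes of the major sperm protein family, 6 yolk genes and 7 genes of oocytes and early embryos were all found in the tables, which are the defining transcripts of an adult hermaphrodite with germ cells. Of these sets, 28 sperm genes, 6 yolk genes and 7 oocyte and embryo genes had a median of at least 1 TPM. In 12 cultures the summed level of the 2 mitochondrial rRNAs lay over 3 log2 units above its median, and the strain tests, H2, the correlations of members and the relation to oocyte markers are also given without these 12.

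The members were among the abundant transcripts of the animal. TPM is the share of a transcript among all transcripts of a library with its length taken into account, so that levels of different genes can be set side by side, and levels are given here as log2(normalized TPM + 0.5) after scaling between samples. The members together made up between 0.127% and 2.65% of the TPM of a culture with a median of 0.509%, and between 76.4% and 92.6% of the TPM of the 12 mitochondrial protein-coding genes. The 7 complex I genes together made up 0.0748% at the median. These are levels of RNA that was captured by its poly(A) tail, and in whole animals fewer mitochondria-rich cells and less mitochondrial RNA per cell cannot be told apart.

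COX3 had the highest mean level over strains, 10.24 ± 0.47 (SD, n = 207 strains), followed by ATP6 at 10.17 ± 0.53, COX1 at 10.13 ± 0.46, CYTB at 9.84 ± 0.43 and COX2 at 9.77 ± 0.48. Neighbours in this order differed within a culture by less than the spread over strains: the mean log2 ratio was -0.07 ± 0.26 (SD over strains) for ATP6 to COX3, 0.04 ± 0.31 for ATP6 to COX1, -0.29 ± 0.33 for CYTB to COX1 and 0.07 ± 0.19 for CYTB to COX2. The order of the 2 ends was steadier. COX3 was above COX2 in 207 of 207 strain means and in 556 of 559 cultures, and CYTB was above COX3 in 5 of 207 strain means. COX3 was the highest of the 5 in 93 strains, COX1 in 60, ATP6 in 53 and CYTB in 1, and COX2 was the lowest in 121 strains.

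Single strains differed by several fold. The highest strain mean exceeded the lowest by 9.71-fold for ATP6, 8.54-fold for CYTB, 9.21-fold for COX3, 6.32-fold for COX1 and 10.9-fold for COX2. NIC258 was the highest of 207 strains for ATP6, CYTB, COX3 and COX2 and the second highest for COX1, after NIC513. In the 3 cultures of NIC258 the normalized TPM of CYTB was 5232, 3383 and 2936, against a median of 874.5 over all cultures, and that of COX1 was 4131, 2805 and 2276, against a median of 1112. All 3 cultures of NIC258 were above the median culture for both transcripts, which follows in part from its choice by these same values.

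**Figure D1:**
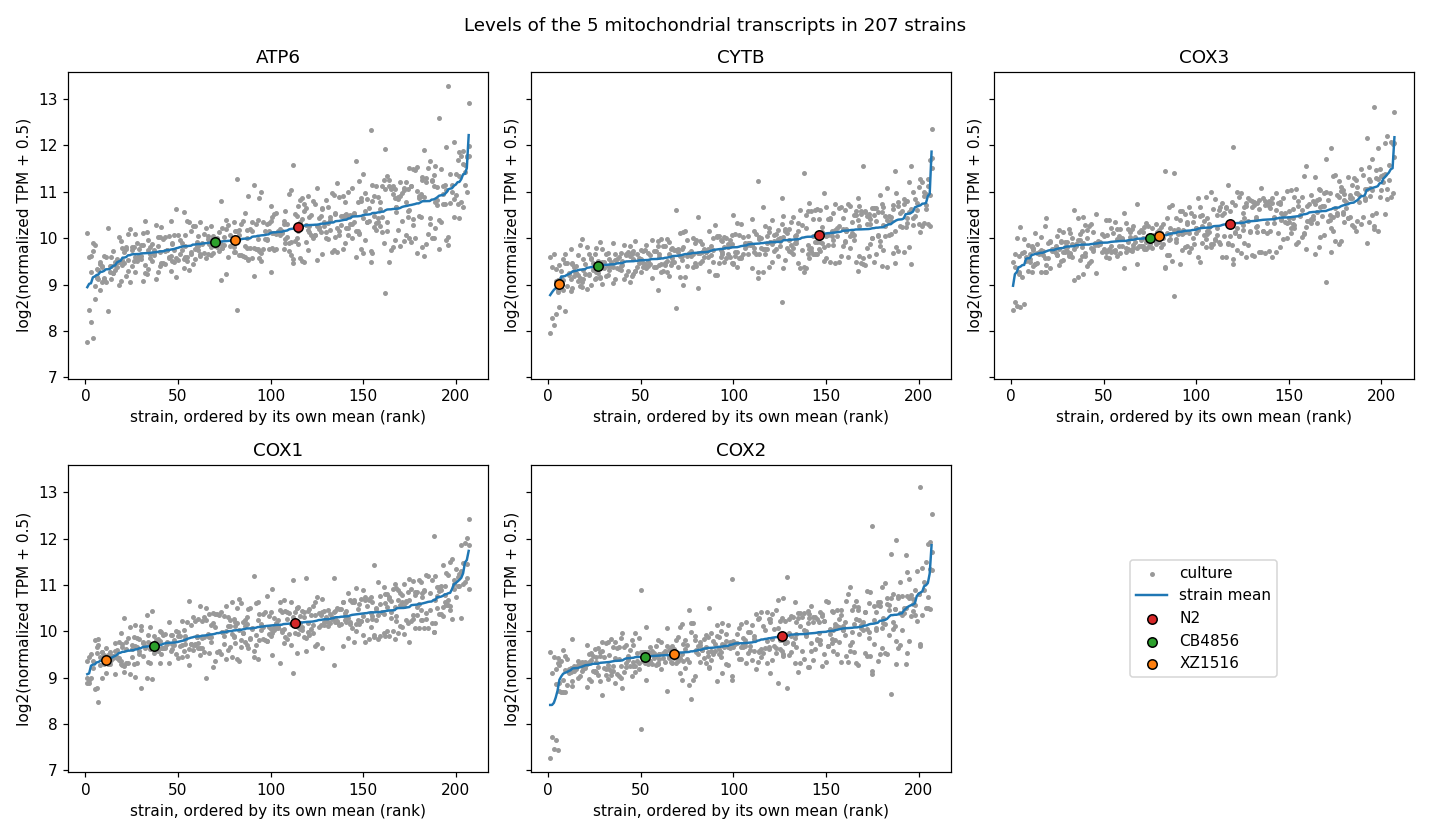
Each panel plots the level of 1 mitochondrial transcript as log2(normalized TPM + 0.5) against the rank of the strain by its own mean, with a grey point for each of the 559 cultures, a line for the means of the 207 strains and large points for the means of N2, CB4856 and XZ1516. Strain means of COX1 ran from 9.08 to 11.74 and those of COX2 from 8.41 to 11.86, and cultures of 1 strain were often spread over a large part of that range.

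The other strains at the upper end were less uniform. COX1 was highest in NIC513, where its normalized TPM was 5506, 1937 and 3723 in the 3 cultures, and JU774 came after NIC258 with 2133 and 3859. QG556 and JU2570 followed NIC258 for ATP6, with 3467, 3518 and 2041 in QG556 and 3046, 2277 and 2760 in JU2570. ED3012 was the third for CYTB with 2494, 2231 and 1271 (means of 10.91 on the log2 scale in ED3012 and 10.96 in NIC513). For COX3 the strains after NIC258 were JU774 with 2018 and 4203 and NIC260 with 4318 and 1901, and for COX2 they were NIC513 with 3871, 1435 and 2587 and JU1792 with 1452, 1718 and 3761. Single cultures raised the mean in several of these strains. The culture of JU1792 at 3761, the culture of NIC260 at 4318 and the cultures of NIC513 at 5506 and 3723 for COX1 are among the 12 with high mitochondrial rRNA.

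The lower end showed the same unevenness. JU2016 had the lowest mean of ATP6, CYTB and COX2, and its 2 cultures differed by several fold, with 1110 and 217.3 normalized TPM for ATP6 and 752.2 and 153.9 for COX2. ECA348 was lowest for COX3, with 351.2 and 717.8, and second lowest for ATP6, CYTB and COX2. ECA259 was the third lowest for ATP6, with 786 in the highest and 290.7 in the lowest of 3 cultures, and BRC20067 was the third lowest for CYTB, with 803.1 and 277.3. COX1 had another set of low strains, which were more even: JU1212 with 652.8, 510.6 and 471.4, NIC166 with 492.9, 701.7 and 472.2, and QW947 with 510.6 and 733.2. All 8 of these COX1 values were below the median culture, which follows in part from the choice of the lowest strains.

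All 5 members differed among strains by the quasi-likelihood F-test of edgeR with Benjamini-Hochberg adjustment over all genes. This holds for most genes, since 95.9% of the 16260 genes tested were called, so it sets the members apart from nothing. The F ratio was 2.87 for COX1 (adjusted p = 1.7e-18), 2.25 for COX3 (adjusted p = 1.1e-11), 2.24 for ATP6 (adjusted p = 1.7e-11), 2.23 for COX2 (adjusted p = 1.8e-11) and 2.15 for CYTB (adjusted p = 1.6e-10). Without the 12 cultures with high mitochondrial rRNA, 543 cultures of the 203 strains that still had at least 2 remained, and a permutation F-test on the levels gave p = 1e-05, the smallest that the permutations can give, for each of the 5 members.

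The share of the variance that strain accounts for, the broad-sense heritability H2, was below the median over genes for each member. It was 0.40 ± 0.05 (SE) for COX1, 0.32 ± 0.05 for CYTB, 0.29 ± 0.05 for ATP6, 0.29 ± 0.05 for COX3 and 0.25 ± 0.05 for COX2. The median over all genes was 0.546, and 254 other genes with a mean level above 9 on the log2 scale had a median of 0.409. Over the 26388 reliably expressed transcripts taken singly the median was 0.335, which the H2 of COX1 exceeded and those of the other 4 did not. The members therefore stood at the 27.4 percentile of all genes for COX1 and between the 11.4 and 18.6 percentiles for the other 4. Cultures of the same strain were spread more widely for the members than for most genes: the residual SD was 0.44 for COX1, 0.47 for CYTB, 0.52 for COX3, 0.57 for COX2 and 0.60 for ATP6 on the log2 scale, against a median of 0.284 over all genes and 0.215 over the 254 abundant genes. H2 depended on the pool: with the sequencing pool regressed out it was 0.52 for COX1, 0.53 for CYTB, 0.46 for ATP6, 0.43 for COX3 and 0.40 for COX2. Without the 12 cultures with high mitochondrial rRNA it was 0.40 for COX1, 0.35 for CYTB, 0.33 for ATP6, 0.30 for COX3 and 0.26 for COX2. With all 608 samples, before the rule that favours agreement within a strain, H2 was lower for each member, with values given at the end.

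The cultures of 1 strain differed by a median of 0.58 log2 units for COX1 and 0.69 for ATP6. The range within a strain was over 1 log2 unit in 40 strains for COX1, 45 for CYTB, 60 for COX2, 62 for COX3 and 74 for ATP6. It was widest for ATP6 in JU2131, whose cultures had a normalized TPM of 9982, 1040 and 920.7, and COX2 in the same cultures was 8833, 850.1 and 817.5. COX1 there was 2336, 702 and 763.7, so that the first culture was high for all 3 transcripts but by different factors. AB1 was similar, with ATP6 at 5139, 848.8 and 720.4 and COX1 at 2746, 973.7 and 943.4. In the first culture of JU2131 the 2 mitochondrial rRNAs summed to 1376 normalized TPM, and in the first culture of AB1 to 624.8.

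The members rose and fell together from culture to culture. After the strain mean was taken out, the correlation of 2 members over the 559 cultures was between 0.91 for COX1 with COX2 and 0.98 for COX3 with COX2, and 1 principal component held 97% of the variance of these deviations. For strain means, Pearson's r over the 10 pairs was between 0.72 and 0.94 with a median of 0.873 and Spearman's rho was between 0.68 and 0.93 (permutation tests, adjusted p = 1e-05 over the 10 pairs for each r and rho, the smallest the permutations can give). The first component of the strain means held 88% of the variance. Without the 2 strains farthest from the median, r was between 0.69 and 0.93, and without the 12 cultures with high mitochondrial rRNA it was between 0.70 and 0.93.

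Pairs with COX1 were the least alike over strains. The 4 pairs that hold COX1 had r values of 0.72 with COX2, 0.73 with CYTB, 0.78 with COX3 and 0.81 with ATP6, and the 6 pairs without it were between 0.87 and 0.94. COX1 and COX2, which are neighbours on the chromosome with 220 bases between them, had the lowest r of the 10, and COX3 and COX2, 3199 bases apart, had the highest. The mitochondrial rRNAs and the complex I transcripts moved with the members in the same cultures: over culture deviations the summed rRNA had an r of 0.80 with COX1 and 0.86 with ATP6, and the summed complex I level had an r of 0.93 with COX1 and 0.97 with ATP6. The part of library preparation in this shared movement was not tested.

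In the main fit, ratios of 2 members within a culture had a higher H2 than each of the levels. For CYTB to COX2, the lowest ratio, the value was 0.45 ± 0.04 (SE), near the 0.40 ± 0.05 of the COX1 level. With the pool regressed out the levels of COX1 and CYTB had 0.52 and 0.53. The 0.45 comes from the fit without that step, so it cannot be set directly against these 2 values. A ratio cancels whatever scales all mitochondrial transcripts of a culture alike, including the depth. H2 of the 10 ratios was between 0.45 for CYTB to COX2 and 0.83 for CYTB to COX1 with a median of 0.689, and each ratio differed among strains (permutation F-test over 207 strains, adjusted p = 1e-05 over 10 ratios, the smallest the permutations can give). The F ratio was 13.8 for CYTB to COX1, 9.10 for ATP6 to COX2, 8.96 for COX3 to COX1, 8.94 for ATP6 to COX3 and 8.49 for CYTB to COX3, and between 3.24 and 5.82 for the other 5. The median residual SD of the 10 ratios was 0.158 log2 units, under the residual SD of each member's level.

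**Figure D2:**
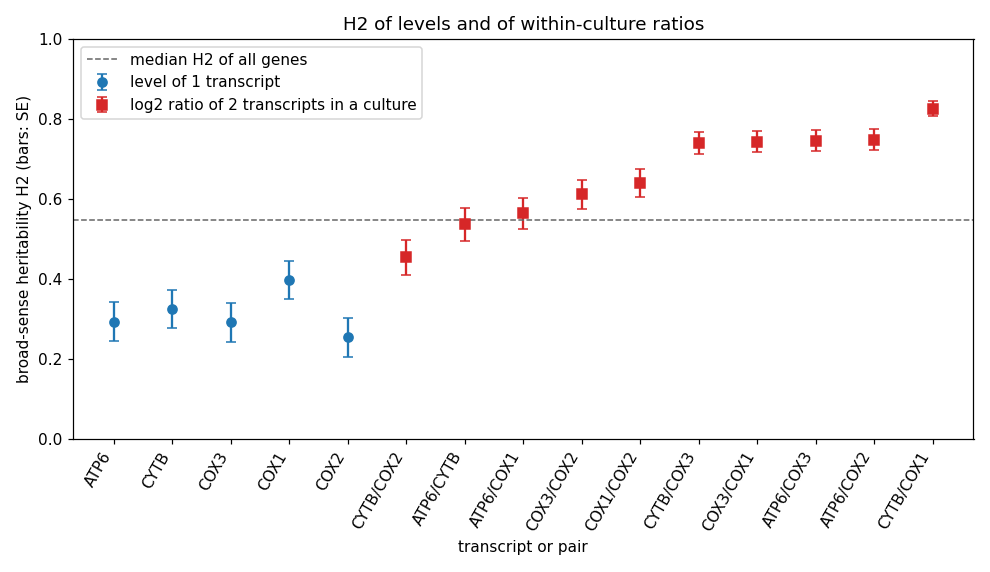
The broad-sense heritability H2 with its SE is plotted for the levels of the 5 transcripts (circles) and for the 10 log2 ratios of 2 transcripts within a culture (squares, in ascending order), and the dashed line is the median H2 of all genes. The levels lie between 0.25 and 0.40 and the ratios between 0.45 and 0.83, with the line at 0.546.

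Not every ratio of mitochondrial transcripts was as repeatable. The 21 pairs of complex I transcripts had a median H2 of 0.434 and a median residual SD of 0.408, and the 35 pairs of a member with a complex I transcript had 0.394 and 0.4. Single pairs of both kinds were as high as pairs of members. H2 ran from 0.23 to 0.76, for ND6 to ND2, in the first kind and from 0.18 to 0.74, for ATP6 to ND1, in the second. The complex I transcripts were lower in level, with medians of 31.7 normalized TPM for ND2 and 214.8 for ND1. Without the 12 cultures with high mitochondrial rRNA, H2 was 0.83 for CYTB to COX1 and 0.48 for CYTB to COX2.

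The ratio of CYTB to COX1 had the highest H2 and the highest F ratio among the ratios of members. Its strain means ran from -0.92 in DL238, where COX1 was the higher transcript, to 0.50 in JU2619, where CYTB was. The log2 ratio was -0.96, -0.91 and -0.90 in the 3 cultures of DL238, -0.84 and -0.97 in those of JU360 and -0.80, -0.92 and -0.91 in those of JU1242. At the other end it was 0.53, 0.45 and 0.53 in JU2619, 0.53, 0.43 and 0.41 in ED3012 and 0.32, 0.47 and 0.34 in JU2610. No culture of the 3 lowest strains was above -0.80 and none of the 3 highest was below 0.32. These strains were picked by this same ratio, so a gap between both ends follows in part from the choice. Each of the other ratios also showed such a gap, for example CYTB to COX2 at -0.16 and 0.16. The strain mean was above 0 in 43 of 207 strains, and the median range within a strain was 0.17.

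The ratio of COX3 to COX2 varied the least of the 10 over strain means, with a few strains far from the rest. Its mean over strains was 0.47 ± 0.16 (SD), and it was above 0 in all 207 strain means. JU2866 stood apart at 1.53, with 1.58, 1.50 and 1.50 in its 3 cultures, and a gap of 0.41 separated it from the next strain, JU360, with 1.13 and 1.10. BRC20067 followed with 0.80 and 1.05. The lowest strain means were those of NIC513, with 0.14, 0.04 and 0.04, and NIC523, with 0.15, 0.07 and 0.03. In JU2866 COX3 ranked 197 of 207 strains from the lowest while COX2 ranked 79.

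**Figure D3:**
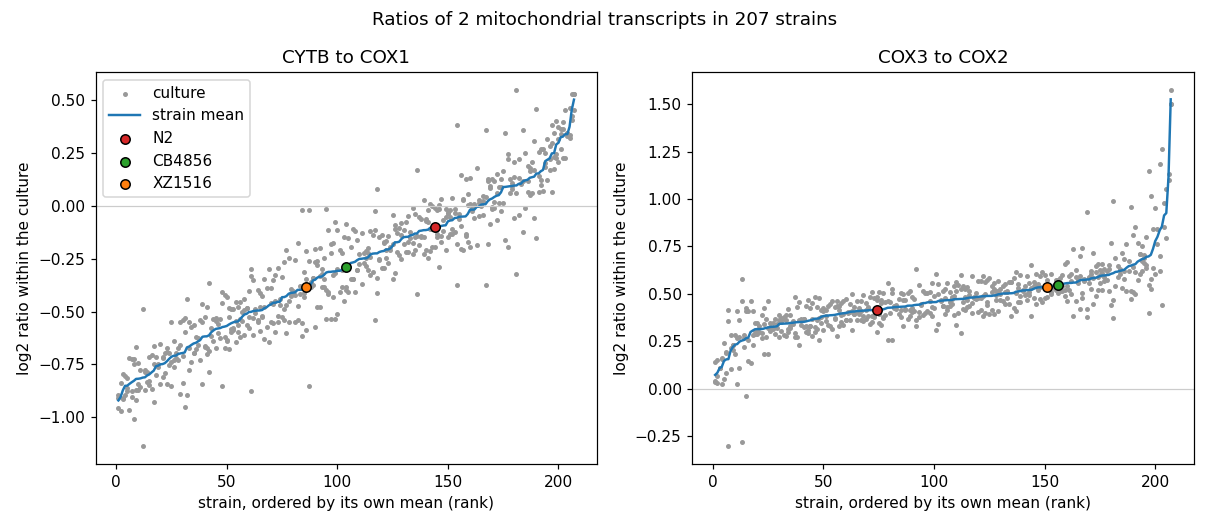
The log2 ratios of CYTB to COX1 (left) and of COX3 to COX2 (right) within a culture are plotted against the rank of the strain by its mean ratio, with a grey point per culture, a line for strain means and large points for N2, CB4856 and XZ1516. The left curve rises over its whole length from -0.92 to 0.50, and the right curve is flat near 0.47 with 1 strain at 1.53.

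Other ratios had their own extreme strains. ATP6 to COX3 was highest in QG556, with 0.79, 0.67 and 0.62, and lowest in JU1581, with -0.79 in both cultures. QG556 also led ATP6 to COX2, with 1.30, 1.22 and 1.07, and a gap of 0.25 separated its mean from that of the next strain. CYTB to COX3 was lowest in JU2866, with -1.15, -1.16 and -1.07, and highest in JU1395, with 0.28, 0.27 and 0.24. COX3 to COX1 was lowest in MY2585, with -0.61, -0.60 and -0.64. Some extremes came from single cultures: JU2131 had the lowest mean of COX1 to COX2 with -1.92 in its first culture and -0.28 and -0.10 in the other 2, and AB1 had -0.84 in its first culture and 0.79 and 0.80 in the other 2. These first cultures of JU2131 and AB1 are among the 12 with high mitochondrial rRNA.

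The strains could be compared between years, taken as the year in the pool label. Of them, 109 had cultures from pools labelled with the first and from pools labelled with the second of the study's calendar years. The comparison held 536 cultures of all strains, after 23 cultures whose labels join pool numbers were left out. The labels of these 23 carry the later year. Over these 109 strains the level of a member in the earlier and in the later year had a Pearson's r of 0.50 for COX1, 0.46 for CYTB, 0.43 for ATP6, 0.35 for COX3 and 0.31 for COX2, with Spearman's rho between 0.26 and 0.48. For the 10 ratios r was between 0.51 for CYTB to COX2 and 0.84 for ATP6 to COX2 and for CYTB to COX1, with a median of 0.707 and rho between 0.61 and 0.87. Each of these 15 relations passed a permutation test, with the highest adjusted p at 0.0018 for r and 0.0065 for rho. Without the 2 strains farthest from the median in the earlier year, r was 0.48 for the COX1 level, 0.25 for the COX3 level and 0.84 for the ratio of CYTB to COX1.

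**Figure D4:**
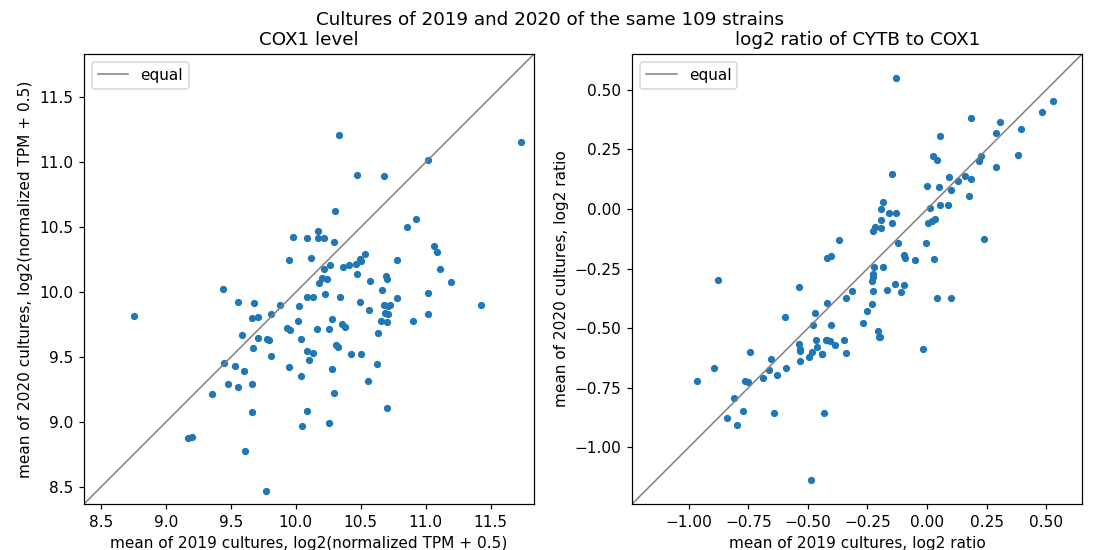
Each point is 1 of 109 strains, with the mean of its cultures of the earlier year on the horizontal axis and of the later year on the vertical axis, for the COX1 level as log2(normalized TPM + 0.5) (left) and for the log2 ratio of CYTB to COX1 (right), and the line marks equal values. Pearson's r was 0.50 on the left, where most points lie under the line, and 0.84 on the right.

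All 5 members were lower in the cultures of the later year within strains. By limma with strain and year in the model, ATP6 fell by 0.49 on the log2 scale (SE 0.066, adjusted p = 5.1e-11), CYTB fell by 0.43 (SE 0.051, adjusted p = 5.6e-14), COX2 fell by 0.42 (SE 0.064, adjusted p = 6.1e-09), COX1 fell by 0.39 (SE 0.049, adjusted p = 1.2e-12) and COX3 fell by 0.38 (SE 0.058, adjusted p = 5e-09). Of all genes 49.1% were called, 33.9% lower in the later year and 15.2% higher. The mean COX1 level of the 109 strains was 10.25 in the earlier year and 9.85 in the later year, and COX1 was higher in the later year in 22 of these strains. The 7 complex I transcripts were also called lower, by 0.45 to 0.94. The summed oocyte and early embryo markers were 0.13 ± 0.25 (SD) higher in the later year, higher in 72 of 109 strains, and their part in the difference was not tested. Year and sequencing pool cannot be told apart. The SE and adjusted p take cultures as units and do not measure the spread among pools. Among pools of the earlier year with at least 50 cultures, the mean of ATP6 ran from 9.91 (n = 75) to 10.67 (n = 54). In such pools of the later year it was 9.81 (n = 68) and 9.95 (n = 83). These pools hold partly different strains. With the 23 cultures of joined pools counted in the later year, ATP6 fell by 0.41, CYTB by 0.36, COX2 by 0.35, COX1 by 0.32 and COX3 by 0.31, with adjusted p of 7e-07 at most. The size rested on which cultures entered: without replicate 3, numbered in accession order, ATP6 fell by 0.79, COX2 by 0.68, COX1 by 0.63, CYTB by 0.63 and COX3 by 0.61, with adjusted p between 0.0013 and 0.012. Replicate 3 is the culture of the later year in many strains. That fit therefore rests on fewer strains with both years, and their number was not counted.

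Levels of the members went against the transcripts of oocytes and early embryos. The 7 marker genes are oma-1, oma-2 and puf-5, which encode RNA-binding proteins of developing oocytes, and cbd-1, egg-1, perm-2 and perm-4, which encode proteins of the eggshell or the egg surface. Their summed level over strain means ran from 10.96 to 12.31, and its r with a member was -0.83 for CYTB, -0.80 for COX3, -0.80 for ATP6, -0.79 for COX2 and -0.66 for COX1 over 207 strains, with rho between -0.81 and -0.63 (permutation tests, adjusted p = 2.4e-05 over 40 relations for each r and each rho). Each of the 7 genes alone had a negative r with each member, between -0.82 for egg-1 with CYTB and -0.53 for oma-1 with COX1. NIC258, the highest strain for 4 members, had the lowest marker sum of 207 strains, and JU2016, the lowest for 3 members, ranked 201.

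The same relation was found inside strains and inside pools. Over the deviations of cultures from their strain mean, r with the marker sum was between -0.86 for COX3 and -0.81 for COX2. Within each of the 7 pools with at least 50 cultures, r was between -0.89 and -0.75 for CYTB and between -0.74 and -0.55 for COX1. Without the 12 cultures with high mitochondrial rRNA, r over strain means was -0.82 for CYTB and -0.63 for COX1, and without the 2 strains farthest from the median it was -0.82 and -0.64. Levels are shares of all RNA of an animal, so a larger share of oocyte and embryo RNA and a smaller share of mitochondrial RNA cannot be told apart here.

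**Figure D5:**
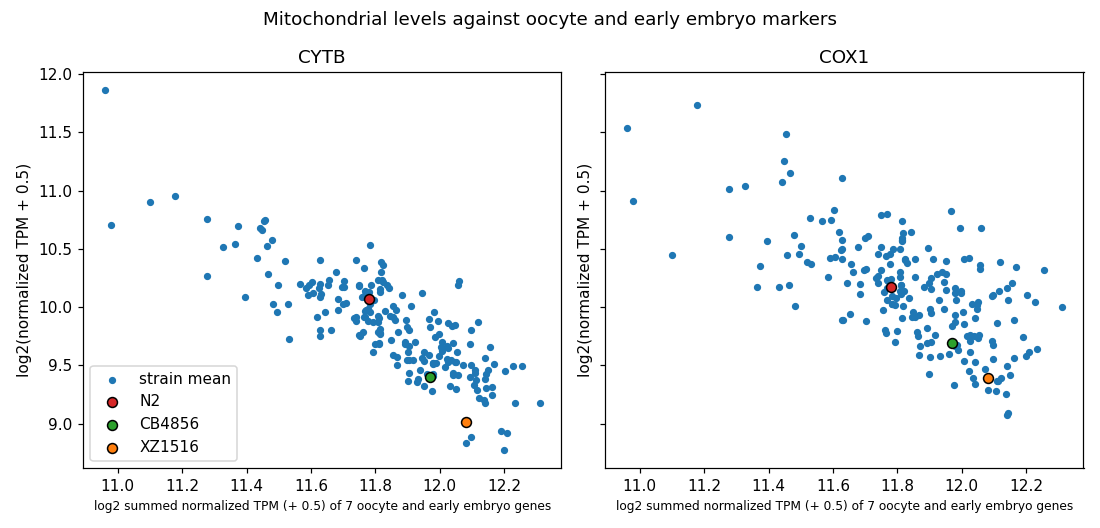
The mean level of CYTB (left) and COX1 (right) in each of 207 strains, as log2(normalized TPM + 0.5), is plotted against the log2 summed level of 7 oocyte and early embryo genes, with large points for N2, CB4856 and XZ1516. Pearson's r was -0.83 on the left and -0.66 on the right.

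Ratios of members were less tied to these markers. Over strain means r of the 10 ratios with the oocyte and early embryo sum was between -0.39 for ATP6 to COX1 and 0.23 for COX1 to COX2. The ratio of CYTB to COX1 had -0.18 (permutation test, adjusted p = 0.019 over 40 relations of ratios with markers) with a rho of -0.13 (adjusted p = 0.088). Over culture deviations the ratios had an r with this sum between -0.62 and 0.42. The ratio of CYTB to COX1 was higher in strains with more sperm transcripts, with an r of 0.43 (permutation test, adjusted p = 0.0001) and a rho of 0.46, and over culture deviations this r was -0.06. The part of sperm transcripts in the strain differences of this ratio was not tested. With the marker sum regressed out, H2 of the COX1 level was 0.59 in place of 0.40, that of COX3 0.39, ATP6 0.35, CYTB 0.33 and COX2 0.28. H2 of the ratio of CYTB to COX1 was then 0.82. That of CYTB to COX2 was 0.49, below the COX1 level in the same fit. The yolk sum, a product of the adult intestine, also had a negative r with the members, between -0.48 for COX2 and -0.40 for ATP6. Muscle genes had a positive r between 0.28 and 0.49 over strain means and between -0.07 and 0.02 over culture deviations. Sperm genes had an r between 0.13 for COX1 (adjusted p = 0.072) and 0.47 for CYTB. The total count per sample had an r between -0.14 and -0.03 with the members, which passed for none, and a rho of -0.22 for CYTB (permutation test, adjusted p = 0.0026), -0.21 for ATP6 (adjusted p = 0.0041), -0.19 for COX2 (adjusted p = 0.0082), -0.16 for COX3 (adjusted p = 0.027) and -0.08 for COX1 (adjusted p = 0.25), and its part in the levels was not tested.

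N2, the reference strain, ranked between 113 for COX1 and 146 for CYTB of 207 strains from the lowest. The normalized TPM of COX1 in its 3 cultures was 1122, 1000.1 and 1366 and that of CYTB was 1050, 875.3 and 1357. By limma against the mean of the other strains, none of the 5 members passed the threshold, with differences from 0.04 for COX1 (SE 0.26, adjusted p = 0.94) to 0.23 for CYTB (SE 0.27, adjusted p = 0.63), where 10.4% of all genes were called, 4.02% higher in N2. At the unadjusted p under 0.05 the count was also 0. Without replicate 3 of N2 the difference was -0.15 for ATP6, -0.07 for COX3, -0.08 for COX1, -0.07 for COX2 and 0.07 for CYTB, so that no direction can be given.

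CB4856, a strain from Hawaii that is often set against N2, had lower values of each member, and the difference passed no threshold in the main test. The normalized TPM of CYTB was 729.9, 698.4 and 608 in CB4856, and that of COX1 was 951.2, 740.1 and 802. COX2 had 752.6, 635.5 and 723.5 in CB4856 and 896.1, 768.6 and 1257 in N2. The cultures of both strains overlapped for ATP6 and COX3. The share of all genes with such overlap was not counted. By edgeR's quasi-likelihood test on the fit of all strains the log2 fold change of CB4856 to N2 was -0.68 for CYTB (adjusted p = 0.20), -0.49 for COX1 (adjusted p = 0.40), -0.47 for COX2 (adjusted p = 0.57), -0.37 for ATP6 (adjusted p = 0.69) and -0.32 for COX3 (adjusted p = 0.69). Of all genes 17.8% were called, 13.1% lower and 4.66% higher in CB4856. At the unadjusted p under 0.05 no member was called. DESeq2 fitted on these 2 strains alone called CYTB (-0.67, adjusted p = 0.0018) and COX1 (-0.48, adjusted p = 0.012) lower, and without replicate 3 of N2 the edgeR value was -0.50 for CYTB and -0.09 for ATP6. The summed oocyte and early embryo markers were 11.78 in N2 and 11.97 in CB4856, and their part in the difference was not tested.

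XZ1516, another strain of the Hawaiian islands and one of the most divergent of the species, was low for 2 of the 5 members. The normalized TPM of CYTB in its 3 cultures was 686.3, 549.6 and 363.1 and that of COX1 was 794.4, 697.7 and 546.7, against medians of 874.5 and 1112 over all cultures. By limma against the mean of the other strains CYTB fell by 0.83 on the log2 scale (SE 0.27, adjusted p = 0.012) and COX1 fell by 0.74 (SE 0.26, adjusted p = 0.020), where 24.2% of all genes were called and 12.9% were called lower. ATP6, COX3 and COX2 had differences of -0.22, -0.20 and -0.26 that did not pass. With the pool as a covariate these were -0.49, -0.44 and -0.50 and still did not pass (adjusted p = 0.24, 0.22 and 0.21), and those of CYTB and COX1 were -1.07 and -0.97. CYTB ranked 6 and COX1 ranked 11 of 207 strains from the lowest. Both calls were lost without replicate 3 of XZ1516, with -0.58 for CYTB (adjusted p = 0.24) and -0.60 for COX1 (adjusted p = 0.20), and that of COX1 was also lost without replicate 2 (adjusted p = 0.074) and with all 608 samples (adjusted p = 0.058). The ratio of ATP6 to CYTB was higher in XZ1516 than in any other strain, with 0.73, 0.90 and 1.19 in its cultures and a mean over strains of 0.33. The oocyte and early embryo sum of XZ1516 was 12.08, above the median of 11.86, and its part was not tested.

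The partner subunits encoded in the nucleus varied among strains in a different way from the members. The 7 listed nuclear subunits of complex IV, the 8 genes of complex III and the 14 of the ATP synthase were all called different among strains, as were 95.9% of all genes. Their median H2 was 0.493, 0.533 and 0.486, and their median residual SD was 0.18, 0.15 and 0.19, against 0.44 for COX1. Within complex IV, H2 was highest for cox-5A (0.57) and cox-6C (0.56) and lowest for cox-6B (0.40) and cox-5B (0.44). Over strain means COX1 had an r between -0.02 and 0.25 with the 7 nuclear subunits of complex IV, with a median of 0.114, and the median r of COX1 with all genes was 0.188. COX3 had an r between 0.06 and 0.39 with these 7 and COX2 also between 0.06 and 0.39, with medians of 0.275 for both, and their medians with all genes were 0.253 and 0.254. ATP6 had an r between -0.27 for asb-1 and 0.60 for R04F11.2 with the 14 ATP synthase genes, and its median r with all genes was 0.285. For CYTB the median r with the 8 complex III genes was 0.38, and with all genes it was 0.298. The highest H2 of complex III were those of ucr-2.1 (0.66) and ucr-2.2 (0.65), which encode core proteins, and the lowest were those of ucr-11 (0.21) and ucr-2.3 (0.44). In the ATP synthase asb-2 and asg-2 had H2 of 0.71 and asg-1 and hpo-18 had 0.16 and 0.20.

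Several nuclear partners were lower in N2, where no member was called. By limma, 3 of 7 complex IV subunits, 5 of 8 complex III genes and 9 of 14 ATP synthase genes were lower in N2 than in the mean of the other strains and none was higher, while 6.4% of all genes were called lower. The complex III genes were cyc-1, which encodes cytochrome c1 (-0.24), isp-1, which encodes the Rieske iron-sulfur protein (-0.29), ucr-1 (-0.37), ucr-2.1 (-0.53) and ucr-2.2 (-0.64). In complex IV they were cox-4 (-0.31), cox-5A (-0.28) and cox-6C (-0.35). The adjusted p of limma for the partner genes called lower in N2 ran from 0.00017 for atp-3 to 0.047 for R53.4. Over all genes the calls in N2 fell from 1694 to between 514 and 1143 without 1 of its cultures. Whether the partner genes stayed called in those fits was not tested. In the later year 3 of 7 complex IV subunits, 3 of 8 complex III genes and 7 of 14 ATP synthase genes were higher than in the earlier year and none was lower, where 15.2% of all genes were called higher, whereas the 5 members were lower. None of these 29 genes was called between CB4856 and N2.

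Assembly factors and regulators differed in how they followed the members. The 14 assembly factors of complex IV had a median H2 of 0.396 and an r with COX1 between -0.26 and 0.46. With other members the r was higher for some of them, at 0.64 with COX2 and 0.62 with COX3 for coa-3, 0.63 with COX2 for cox-14 and 0.61 with ATP6 for coa-4. H2 was highest for cox-17 (0.81) and coa-6 (0.81) and lowest for coa-4 (0.11) and coa-5 (0.15). In XZ1516 coa-6 (0.39) and sft-1 (0.26) were higher and cox-19 (-1) was lower, so that 3 of 14 were called where 24.2% of all genes were. Of 7 listed genes of mitochondrial gene expression 6 were tested, among them rpom-1, the mitochondrial RNA polymerase, with an H2 of 0.58, polg-1, the mitochondrial DNA polymerase, with 0.69, hmg-5, a DNA-packaging protein, with 0.23, and mma-1 with 0.12. The highest r of COX1 with one of these 6 was 0.04 and the median was -0.13. The 8 genes of the mitochondrial stress response had an r with COX1 between -0.19 for hsp-6 and 0.48 for dve-1, with a median of 0.03. With other members dve-1 had 0.53 with CYTB and 0.52 with ATP6, ubl-5 had 0.53 with COX2, and atfs-1 had -0.37 with COX2. These values, and those named for assembly factors with other members, were picked as the more extreme of their lists. The median r with all genes was 0.254 for COX2, 0.253 for COX3, 0.285 for ATP6 and 0.298 for CYTB. Their H2 ran from 0.05 for ubl-5 and 0.21 for clpp-1 to 0.65 for dve-1 and 0.79 for haf-1. In XZ1516 the mitochondrial chaperone genes hsp-6 (0.34) and hsp-60 (0.43) were higher and atfs-1, which encodes a transcription factor of the response (-0.29), and haf-1 (-0.40) were lower.

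The genes most like each member over the 207 strain means were other mitochondrial genes and a few nuclear genes, by Pearson's r and with no test. ND4 was the most similar gene outside the 5 for COX2 (0.91), CYTB (0.90), COX3 (0.87) and ATP6 (0.85), and ND5 was for COX1 (0.74). ND5 came second for CYTB (0.88) and COX3 (0.86), ND6 for ATP6 (0.84) and ND2 for COX2 (0.89), and the third places were held by ND2 for COX3 (0.85), ND3 for COX2 (0.87) and ND6 for COX1 (0.71). Among nuclear genes vha-17, which encodes a small subunit of the vacuolar proton pump, was nearest to ATP6 (0.84), COX3 (0.83), CYTB (0.83) and COX2 (0.82), and gtf-2A2, which encodes a subunit of a general transcription factor, was nearest to COX1 (0.72). C05C12.4 was next for ATP6 (0.82) and CYTB (0.81) and the third for COX3 (0.81) and COX2 (0.80), and gtf-2A2 was second for COX3 (0.81) and COX2 (0.80). C08B6.11 (0.78 with ATP6), nhr-153 (0.78 with CYTB), C53C7.5 (0.69 with COX1) and sph-1 (0.69 with COX1) completed the sets of 3. These r values come from the same libraries.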

How the data were processed

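Per the labels and the methods of the study, the authors trimmed reads with fastp 0.20.0 and pseudoaligned them with Kallisto 0.44.0 to transcriptomes in which the single-nucleotide variants of each strain had been substituted. Whether other variants of the mitochondrial DNA changed how many reads were assigned was not tested. The authors deposited estimated counts and raw TPM per transcript, with no scaling between samples. Estimated counts were summed per gene over reliably expressed transcripts (at least 5 normalized counts in all samples of at least 10 strains, 26388 transcripts of 16260 genes, protein-coding genes and pseudogenes in Ensembl's annotation of WBcel235) and rounded to whole numbers where the tool needs it. The study's rule on distances between samples, applied to the variance-stabilized counts of DESeq2 1.42.0, kept 559 of 608 samples. TPM was divided by median-ratio factors over 8295 transcripts, and 0.5 was added before log2. H2 came from a REML fit that took strain as a random effect. edgeR 4.0.16 (dispersion trend from 400 genes) and limma 3.58.1 were used with R 4.3.3, and Python 3.11.15 with numpy 2.4.6 and pandas 2.3.3 for permutations with 100000 resamples. A gene was called at an adjusted p under 0.05. The scripts were tested on simulated data.

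The strain, pool and year of each sample come from its label. Strain JU2800 has 1 sample and was left out of all comparisons. Cultures were numbered in accession order, and no 2 cultures of a strain agreed within sampling noise, as the lowest chi-square per degree of freedom of 595 pairs was 5.77. Permutations treat strains as independent, and relatedness was not modelled. The members, set by sequence name, and the gene lists were chosen with earlier results of these data known, and the named genes follow a rule: the members, the other mitochondrial genes, the 3 highest and 3 lowest strains of each member with N2, CB4856 and XZ1516, the 3 genes and the 3 nuclear genes with the highest r, and the 2 highest and 2 lowest in H2 of each list. Strains named for ratios, cultures with wide ranges, the comparison of years, the split by mitochondrial rRNA and the fits with oocyte and early embryo markers were added after seeing the data, as were partner genes named for a call. Alternatives were other scalings, pseudocounts, filters, tools, all 608 samples, pool as a covariate and leaving out cultures.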

Additional observations from a re-analysis of the deposited data

Results flagged for a closer look

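Strain JU2800 has 1 sample, which belongs to no comparison. Its deposited TPM, with no scaling between samples, was 771.72 for ATP6, 713.39 for CYTB, 947.93 for COX3, 709.84 for COX1 and 710.21 for COX2. All 5 transcripts were thus detected in data outside the comparisons, with COX3 the highest of the 5.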

How the results depend on the processing

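No paired analysis was possible because the labels carry no replicate numbers to use as a block. The comparison of years had strain in its model. H2 moved with the processing. With the pool regressed out it was 0.4613 for ATP6, 0.525 for CYTB, 0.4346 for COX3, 0.5194 for COX1 and 0.4013 for COX2. With all 608 samples it was 0.2082, 0.2077, 0.1802, 0.287 and 0.1719 in the same order. With raw TPM it was 0.2297 for ATP6 and 0.2487 for CYTB. With oocyte and early embryo markers regressed out it was 0.3543 for ATP6, 0.3886 for COX3 and 0.5927 for COX1, and with sperm and yolk markers regressed out 0.2467 for CYTB and 0.4442 for COX1. Leaving out 1 of the replicates gave 0.2221 to 0.3607 for ATP6, 0.2321 to 0.4044 for CYTB, 0.2336 to 0.3004 for COX3, 0.353 to 0.4152 for COX1 and 0.2128 to 0.2583 for COX2.

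The 10 ratios passed the test under all 80 combinations of ratio and alternative run, with F ratios from 1.957 to 16.757, and the 10 correlations of members stayed between 0.7072 and 0.9524 over 60. The number of genes called in N2 was 1694, and it was 910 with all samples, 1046 with raw TPM and between 514 and 1143 without 1 of its cultures. The member differences of N2 ranged from -0.1537 to 0.2564 for ATP6, -0.0711 to 0.1994 for COX3, -0.083 to 0.142 for COX1 and -0.0733 to 0.2812 for COX2 when 1 culture of N2 was left out, and changed sign without replicate 3. The number of genes called between years was 7990, with 4292 for all samples and between 1408 and 6082 without 1 of the replicates. The causes were not tested. The number of cultures limits single strains: the SE of a member's difference was 0.26 to 0.34 in N2 and XZ1516.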
